A study of Mus musculus with 12 samples.

Results

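A list of 10 cytokine and receptor genes of the interleukin-1 (IL-1) family and of the cytokine groups that act beside it was followed across 4 genotypes of mouse embryonic fibroblasts on day 6 of adipocyte differentiation. The genes were Il1rn, Il1a, Il1b, Il33, Il1r1, Il1rl1, Il6, Il11, Lif and Csf1. They were taken up as a named list because Il1rn was higher in Ing1-KO than in WT cells, so the set was chosen by the CPM values and fold change of that comparison, which are given below as a description, with no test. The count files list 37991 genes, of which these are 10. Of 16163 genes that passed a filter on low counts and were tested, 8 belong to the list, and Il1a and Il1b had too few reads to pass.

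Embryonic fibroblasts are primary cultures that hold mostly connective tissue cells and can be driven towards fat cells by hormones. Per the labels, all cells came from male C57BL/6N embryos at E15.5, were kept for 4 passages, and were treated after confluence with 0.5 mM IBMX, 1 µM dexamethasone (a glucocorticoid), 2 µM rosiglitazone (a PPARγ agonist) and 10 µg/ml insulin, then with insulin alone after 48 h. The 4 groups of 3 libraries each were wildtype (WT), Gadd45a-deficient (Gadd45a-KO), Ing1-deficient (Ing1-KO) and deficient in both (DKO). The mutant mice carry germline deletions that are not restricted to 1 cell type, and every group, WT included, had received the same differentiation treatment. The labels do not say whether the replicates of a genotype were separate embryos or separate dishes, so the spread on which p-values rest is that between libraries and may be technical.

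IL-1α and IL-1β bind the receptor IL-1R1, which then recruits the accessory chain IL-1RAP and switches on NF-κB and stress kinases through MyD88. The product of Il1rn, the IL-1 receptor antagonist, occupies the same receptor without recruiting the accessory chain and so blocks the signal. IL-33 acts through ST2, the product of Il1rl1, with the same accessory chain. IL-6, IL-11 and LIF signal through gp130 and JAK kinases to STAT3, LIF is known to act on preadipocytes, and CSF-1 is the growth factor on which most macrophages depend.

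The libraries held between 42891600 and 52860400 reads in genes. Ing1 followed its label, at 0.681 to 1.60 CPM (reads of the gene scaled to the library's reads in genes) in the 6 libraries labelled Ing1-KO or DKO and 43.6 to 47.9 CPM in the other libraries. Gadd45a went against its label: the 6 libraries labelled as lacking it had 138 to 144 CPM, and the others 13.4 to 18.4 CPM. Counts per gene cannot show whether those reads lie outside the deleted part of the gene. The names Gadd45a-KO and DKO are therefore used below for the libraries labelled so. Fibroblast markers were present in every library (10 of 10 tested, summed level 47688 to 58987 CPM). Their sum was lower in DKO (47688 to 52371 CPM) than in Gadd45a-KO (53257 to 54651), Ing1-KO (54153 to 56280) or WT (54463 to 58987), without overlap. In DKO against WT 1 of the 10 was called, Pdgfra, which was lower (log2 fold change -0.77 ± 0.14, edgeR adjusted p = 0.0119), beside 7.09% of all tested genes. The part of the fibroblast level in the results below was not tested. Markers of fat cells and of macrophages also differed between the genotypes, and their levels are given beside the results they move with.

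The list spanned a wide range of levels. Per kilobase of exon, over all 12 libraries, Csf1 was the most abundant at 62.7 CPM per kb, followed by Il1r1 at 34.1, Il1rn at 11.4, Il1rl1 at 9.51 and Il33 at 7.05 CPM per kb. Lif had 3.03, Il6 1.49 and Il11 0.413 CPM per kb, and Il1b (0.107) and Il1a (0.0757) were the lowest. The cultures thus held far more message for the receptor and its antagonist than for the ligands IL-1α and IL-1β. Among the 8 tested genes, the highest library exceeded the lowest by 4.36-fold for Il1rn, the widest range, and by 1.51-fold for Csf1, the narrowest.

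**Figure D1:**
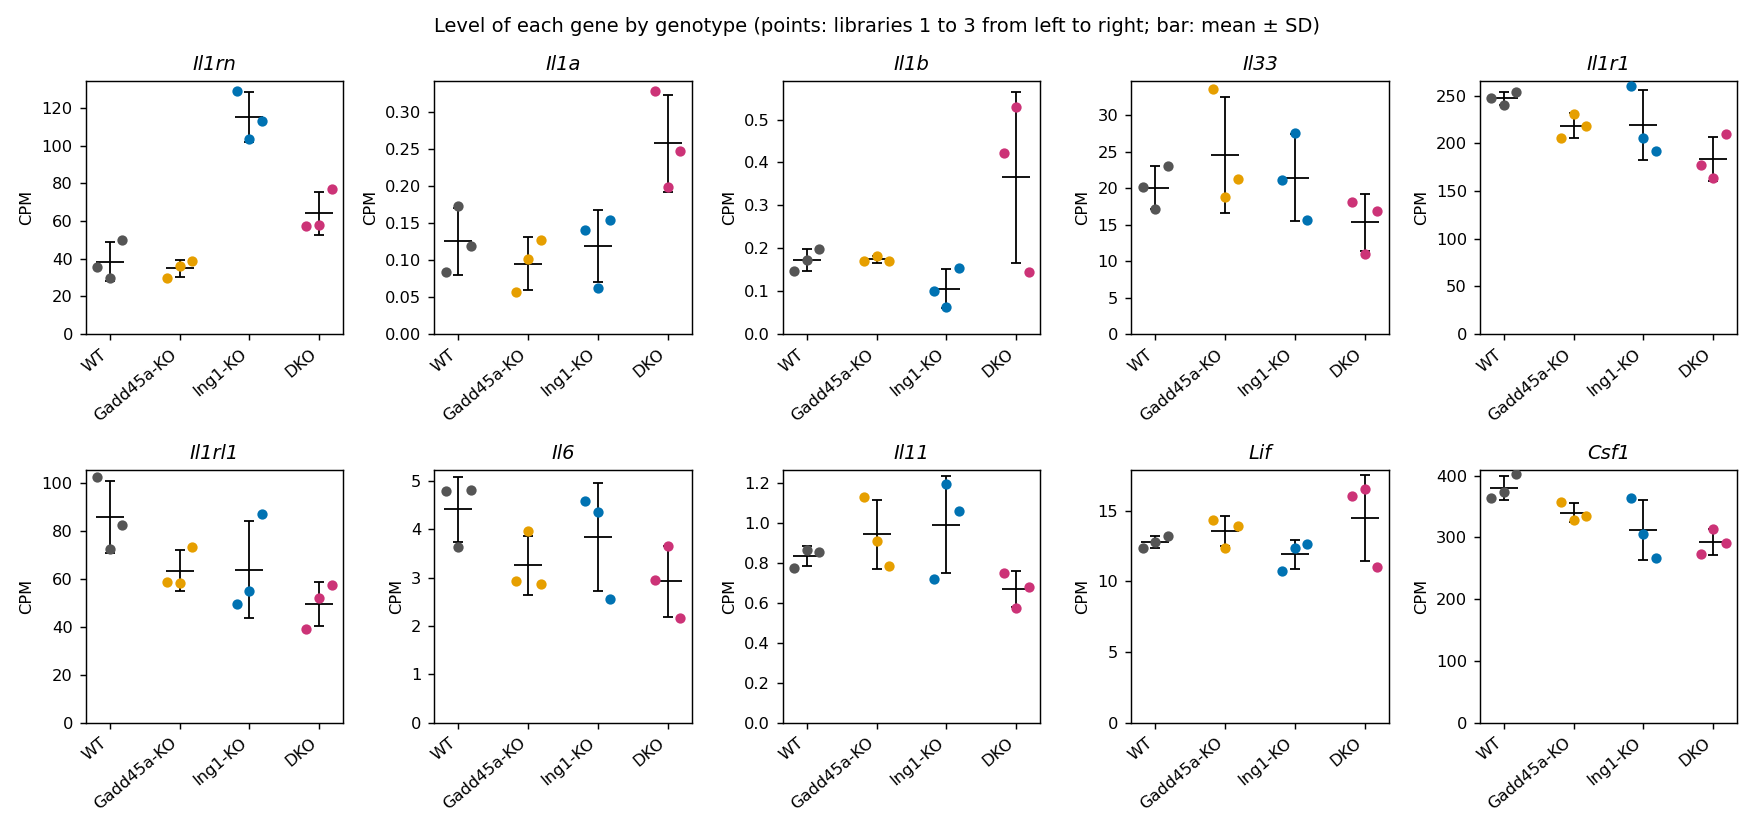
Level of each of the 10 genes in CPM (y axis, from 0, with its own scale for each gene) by genotype (x axis), with 1 point for each library, the mean as a line and the SD over 3 libraries as the bar. The Ing1-KO libraries stand highest for Il1rn (103 to 129 CPM) and the DKO libraries lie between them and WT, while for Il1r1, Il1rl1 and Csf1 the WT mean is the highest and the DKO mean the lowest.

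Il1rn (ENSMUSG00000026981) had 35.7, 29.8 and 49.9 CPM in WT replicates 1 to 3 and 29.7, 36.3 and 38.6 CPM in Gadd45a-KO. It had 129, 103 and 113 CPM in Ing1-KO and 57.3, 58.0 and 77.2 CPM in DKO. Both groups with the intact Ing1 label overlapped each other, all DKO libraries lay above them, and all Ing1-KO libraries lay above DKO. The order of the means was Ing1-KO (115 ± 13.1 CPM, SD, n = 3), DKO (64.2 ± 11.3), WT (38.5 ± 10.4) and Gadd45a-KO (34.9 ± 4.64). In Ing1-KO against WT, the comparison that chose the list, Il1rn was 2.99-fold higher (log2 fold change 1.58 ± 0.19, SE). The count of members past the threshold there, 1 of 8 (4.32% of all genes), was set by that choice and is not read as a result.

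Il1rn was also compared between DKO and Gadd45a-KO, whose 6 libraries do not enter the comparison that chose the list and differ in the Ing1 label alone. The list was chosen with earlier results of these data known, and the fit took its spread from all 12 libraries. This test is therefore not fully independent of the choice. Il1rn was 1.84-fold higher in DKO (log2 fold change 0.88 ± 0.19) with no overlap between the groups, but it did not pass the test across all genes (adjusted p = 0.0565, edgeR quasi-likelihood with Benjamini-Hochberg adjustment). Over the alternatives run, the adjusted p ran from 0.000164 with DESeq2 to 0.174 with 1 library left out, and it was 0.0411 when only these 6 libraries were fitted. Without WT replicate 3 it was 0.0458, and without Ing1-KO replicate 1 it was 0.0494. Against WT, Il1rn rose in DKO by 1.67-fold (log2 0.74 ± 0.19, edgeR adjusted p = 0.0338). The WT libraries are those of the comparison that chose the list, so this p is not independent of the choice. That call was lost without any 1 of WT replicate 1 (adjusted p = 0.125), WT replicate 2 (0.0845) or DKO replicates 1 (0.0733), 2 (0.0610) or 3 (0.0950) in the same edgeR test, and with only these 6 libraries (0.0884).

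Il1rn was lower in DKO than in Ing1-KO, at 0.557 times the level (log2 fold change -0.84 ± 0.19, edgeR adjusted p = 0.0273), again with no overlap. The Ing1-KO libraries are those in which Il1rn was picked for being high, so this p is not independent of the choice either. The call was lost without Ing1-KO replicates 1 (edgeR adjusted p = 0.0880) or 2 (0.0799) or DKO replicates 1 (0.101) or 2 (0.0869). Gadd45a-KO did not differ detectably from WT (log2 fold change -0.14 ± 0.19, edgeR adjusted p = 0.963). The interaction, which asks whether the Il1rn difference between the Ing1 labels depends on the Gadd45a label, was -0.70 ± 0.27 on the log2 scale and did not pass (edgeR adjusted p = 0.312). It contains the comparison that chose the list.

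Because Il1rn is the gene on which the list turns, its start regions are shown. RefSeq (GRCm38.p6) gives 3 windows for Il1rn, each from 250 bases before to 50 after an annotated start, on the plus strand. Windows 1 and 3, chr2:24336610-24336909 and chr2:24345121-24345420, are printed 5′ to 3′. Capitals mark an AP-1 motif (TGANTCA) in window 1, and in window 3 an NF-κB motif (GGGNNTTTCC) and the letters TATAAA on the opposite strand.
Il1rn, start 1: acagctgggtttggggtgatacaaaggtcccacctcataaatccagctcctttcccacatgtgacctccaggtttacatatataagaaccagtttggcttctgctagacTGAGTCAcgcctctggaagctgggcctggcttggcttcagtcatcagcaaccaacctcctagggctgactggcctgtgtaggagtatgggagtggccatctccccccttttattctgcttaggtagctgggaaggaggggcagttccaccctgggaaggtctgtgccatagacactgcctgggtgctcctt
Il1rn, start 3: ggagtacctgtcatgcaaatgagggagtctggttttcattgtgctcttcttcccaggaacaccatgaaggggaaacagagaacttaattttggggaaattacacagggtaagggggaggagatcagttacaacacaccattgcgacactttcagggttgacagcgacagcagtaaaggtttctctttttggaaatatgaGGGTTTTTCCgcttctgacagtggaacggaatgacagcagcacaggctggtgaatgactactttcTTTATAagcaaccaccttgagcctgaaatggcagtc

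The AP-1 letters began 141 bases before start 1 and the NF-κB letters 51 bases before start 3. The TATAAA letters began 14 bases after start 3, on the strand opposite to the gene, and are not read as a TATA box of Il1rn. Window 2 overlaps window 3 and holds the same NF-κB letters. Searched on both strands, TGANTCA occurred in 7.81% of 32851 mouse promoter windows of the same length, GGGNNTTTCC in 1.63% and TATAAA in 13.6%. The NF-κB letters were settled on after a looser form had been searched. Il1rn window 1 held 1 CpG and window 3 held 4, against a median of 7 over all windows. The counts do not separate the starts, so the share of Il1rn reads from each is not known.

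The ligands Il1a and Il1b, which encode IL-1α and IL-1β, were near the limit of detection in every genotype. Il1a had 4, 8 and 6 reads in WT, 3, 5 and 6 in Gadd45a-KO, 7, 3 and 8 in Ing1-KO and 14, 9 and 12 in DKO. Il1b had 7, 8 and 10 reads in WT, 9, 9 and 8 in Gadd45a-KO, 5, 3 and 8 in Ing1-KO and 18, 24 and 7 in DKO. The DKO libraries had the most Il1a reads of any genotype without overlap, whereas for Il1b DKO replicate 3, with 7 reads, equalled the lowest WT library. Pooled over 3 libraries, Il1a came to 0.257 CPM in DKO (exact Poisson 95% interval 0.179 to 0.357) and 0.0936 CPM in Gadd45a-KO (0.0512 to 0.157), and Il1b to 0.359 (0.266 to 0.475) and 0.174 CPM (0.114 to 0.255). These intervals cover counting error only. In a fit of all genes without the filter, neither passed in DKO against Gadd45a-KO (Il1a log2 1.43 ± 0.42, edgeR adjusted p = 0.144; Il1b 1.03 ± 0.42, adjusted p = 0.286).

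Set against the 2 ligands together, antagonist reads were in large excess. The ratios are not scaled for exon length, which is 5.535 kb for Il1rn, 1.974 kb for Il1a and 1.907 kb for Il1b. They are therefore larger than ratios per kb would be. The ratio of Il1rn to the sum of Il1a and Il1b reads was 155, 85.9 and 157 in WT, 131, 128 and 130 in Gadd45a-KO, 538, 824 and 367 in Ing1-KO and 76.2, 79.6 and 197 in DKO. All Ing1-KO ratios exceeded those of the other genotypes, while the DKO ratios overlapped WT and straddled Gadd45a-KO. Ing1-KO replicate 2 had only 6 ligand reads, under the 10 set as the minimum, so the ratio was not tested. Pooled ligand reads numbered 43 in WT, 40 in Gadd45a-KO, 34 in Ing1-KO and 84 in DKO.

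Il33 (ENSMUSG00000024810), which encodes the alarmin that binds ST2, had 20.2, 17.1 and 23.0 CPM in WT, 33.5, 18.7 and 21.3 in Gadd45a-KO, 21.1, 27.5 and 15.7 in Ing1-KO and 18.1, 10.9 and 16.9 in DKO. The genotypes that are neighbours in the order of means overlapped throughout, and Gadd45a-KO replicate 1 was the highest library. DKO lay below Gadd45a-KO without overlap (log2 fold change -0.68 ± 0.28) and did not pass (edgeR adjusted p = 0.206). Without Gadd45a-KO replicate 1 that log2 fold change was -0.39.

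The receptor genes had their highest mean in WT. Il1r1 (ENSMUSG00000026072), the signalling receptor for IL-1, had 247, 240 and 254 CPM in WT, 205, 231 and 219 in Gadd45a-KO, 261, 206 and 192 in Ing1-KO and 177, 164 and 210 in DKO. All DKO and all Gadd45a-KO libraries lay below WT, and the Ing1-KO libraries spread from 192 to 261 CPM, across the WT and Gadd45a-KO ranges. Il1r1 fell in DKO against WT by 0.43 ± 0.11 on the log2 scale (edgeR adjusted p = 0.0344). Against Gadd45a-KO its log2 fold change was -0.25 ± 0.11 (edgeR adjusted p = 0.252), with DKO replicate 3 inside the Gadd45a-KO range.

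Il1rl1 (ENSMUSG00000026069), which encodes ST2, had 102, 72.6 and 82.4 CPM in WT and 58.5, 58.2 and 73.1 CPM in Gadd45a-KO. It had 49.4, 54.9 and 87.0 CPM in Ing1-KO and 39.2, 52.0 and 57.3 CPM in DKO. The DKO libraries lay below all WT and all Gadd45a-KO libraries, and the other neighbours in the order of means overlapped. Il1rl1 fell in DKO against WT by 0.79 ± 0.23 on the log2 scale (edgeR adjusted p = 0.0454) and did not pass against Gadd45a-KO (log2 fold change -0.35 ± 0.22, edgeR adjusted p = 0.428).

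Csf1 (ENSMUSG00000014599) had 364, 373 and 403 CPM in WT, 357, 328 and 334 in Gadd45a-KO, 364, 305 and 267 in Ing1-KO and 273, 314 and 291 in DKO. WT stood above Gadd45a-KO without overlap, and the lower 3 genotypes overlapped in order. Csf1 fell in DKO against WT by 0.38 ± 0.10 on the log2 scale, to 0.770 times the WT level (edgeR adjusted p = 0.0302). Against Gadd45a-KO the log2 fold change was -0.22 ± 0.10 (edgeR adjusted p = 0.244), again without overlap. The start region of Csf1, which fell in DKO where Il1rn rose, is chr3:107760420-107760719 on the minus strand of the same RefSeq build. Capitals mark the NF-κB letters, here on the opposite strand, beginning 154 bases before the start.
Csf1: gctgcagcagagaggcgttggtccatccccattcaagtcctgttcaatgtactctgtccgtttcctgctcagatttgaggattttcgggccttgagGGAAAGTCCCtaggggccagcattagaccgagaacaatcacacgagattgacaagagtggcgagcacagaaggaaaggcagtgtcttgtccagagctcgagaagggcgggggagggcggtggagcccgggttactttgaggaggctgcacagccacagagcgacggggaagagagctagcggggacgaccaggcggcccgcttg

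This window held 16 CpG pairs, more than the Il1rn windows. Among the other members, the NF-κB letters occurred in the Il6 window, 44 bases before its start. A match of letters is a description and marks no bound site.

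The gp130 cytokines were lower in level and none passed in any comparison tested. Il6 (ENSMUSG00000025746) had 4.78, 3.64 and 4.82 CPM in WT, 2.94, 3.95 and 2.87 in Gadd45a-KO, 4.59, 4.35 and 2.56 in Ing1-KO and 2.96, 3.64 and 2.17 in DKO. Neighbouring genotypes overlapped, and DKO against WT gave a log2 fold change of -0.60 ± 0.25 (edgeR adjusted p = 0.136). Il11 (ENSMUSG00000004371) had 0.776 to 0.867 CPM in WT, 0.785 to 1.13 in Gadd45a-KO, 0.722 to 1.19 in Ing1-KO and 0.574 to 0.751 in DKO. The DKO libraries were below all WT and Gadd45a-KO libraries, with a log2 fold change of -0.50 ± 0.22 against Gadd45a-KO that did not pass (edgeR adjusted p = 0.233). Lif (ENSMUSG00000034394) had 12.3 to 13.2 CPM in WT, 12.3 to 14.3 in Gadd45a-KO, 10.8 to 12.7 in Ing1-KO and 16.01, 16.52 and 10.99 in DKO. Its DKO libraries 1 and 2 were the highest of all and library 3 among the lowest, and against Gadd45a-KO the log2 fold change was 0.10 ± 0.13 (edgeR adjusted p = 0.744). Without DKO replicate 3, Lif passed in DKO against WT (log2 0.35, edgeR adjusted p = 0.0340) and against Ing1-KO (0.45, 0.0170).

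Counted over the list, DKO against WT had 1 tested member that rose (Il1rn) and 3 that fell (Il1r1, Il1rl1, Csf1) of 8, where 13% of all tested genes passed, 5.94% higher and 7.09% lower. The WT libraries, and with them the WT level of Il1rn, also entered the choice of the list. The median log2 fold change of the 8 was -0.38, beside -0.0026 over all tested genes. The calls rest on single libraries: with 1 library left out, between 0 and 4 members passed. Leaving out WT replicate 1, WT replicate 2, DKO replicate 1 or DKO replicate 2 left 0, leaving out WT replicate 3 left 1 (Il1rn) and leaving out Gadd45a-KO replicate 3 left 2 (Il1rn and Csf1). Leaving out DKO replicate 3 left Il1r1 beside Il1b and Lif, which passed in no other of these 12 fits. With no filter on low counts 0 passed. Over those 12 fits Il1rn passed in 7, Csf1 and Il1r1 in 6 each, and Il1rl1 in 2, without Ing1-KO replicate 1 or Ing1-KO replicate 3.

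In DKO against Gadd45a-KO, 0 of 8 members passed in edgeR, where 1.26% of tested genes did, and 4 were at an unadjusted p under 0.05, as were 20% of all genes. DESeq2 called 1, Il1rn, and edgeR with DKO replicate 3 left out called 1, Il1b. Library values did not overlap for 1 member that was higher (Il1rn; 12.4% of all genes) and for 4 that were lower (Il33, Il1rl1, Il11 and Csf1; 13.6% of all genes). The median log2 fold change was -0.23 beside -0.0025 over all tested genes. In DKO against Ing1-KO, 1 of 8 passed (Il1rn, lower), against 11.7% of all genes, and the median was -0.38 beside -0.015. In Gadd45a-KO against WT, 0 of 8 passed in edgeR and in DESeq2, beside 0.0124% of all genes, and 0 had an unadjusted p under 0.05, beside 5.48% of all genes. The interaction called 0 members and 0% of genes in edgeR, 0 members in DESeq2, and had 2 members (Il1rn and Il11) at an unadjusted p under 0.05, beside 13.6% of all genes. DKO against WT and Gadd45a-KO against WT share the WT libraries.

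**Figure D2:**
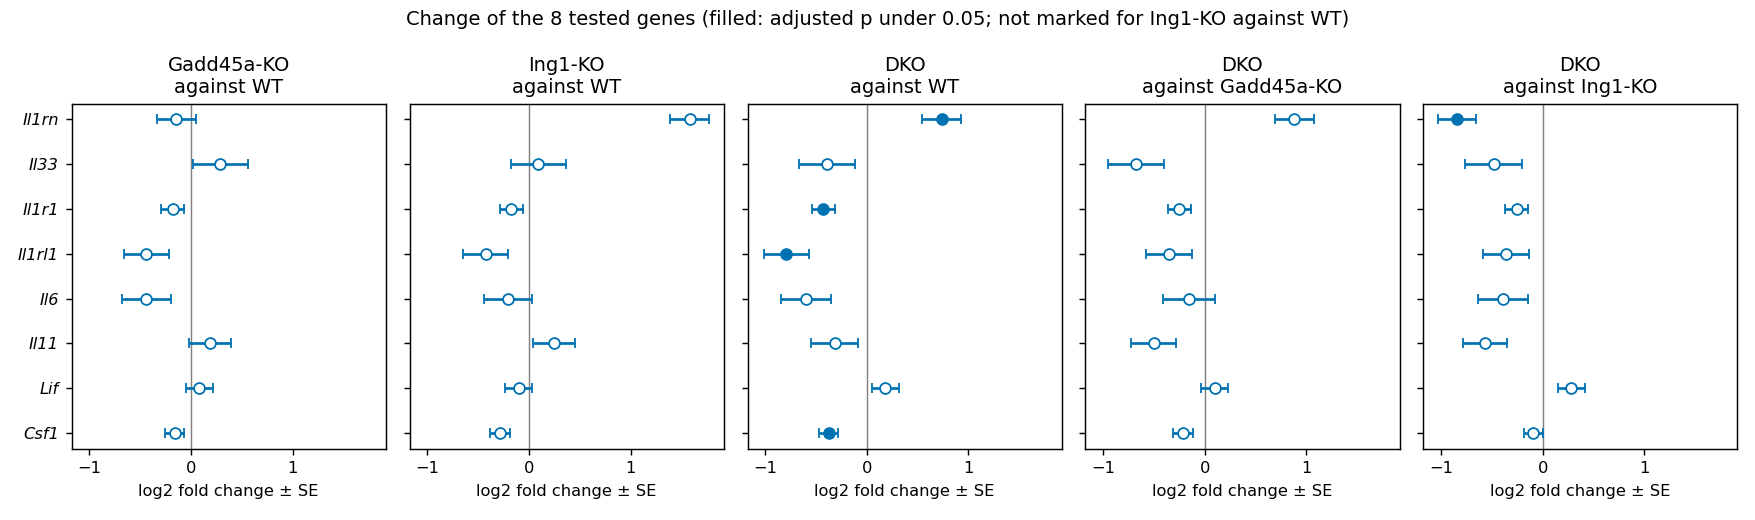
Log2 fold change (x axis) of the 8 tested genes (rows) in 5 comparisons, with bars of 1 SE and filled points for an edgeR adjusted p under 0.05, which is not marked for Ing1-KO against WT. Il1rn lies right of 0 in DKO against WT (0.74) and against Gadd45a-KO (0.88) and left of 0 in DKO against Ing1-KO (-0.84), whereas most of the other genes lie left of 0 in the 3 DKO panels.

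Across the 12 libraries, Il1r1 and Csf1 followed each other most closely among the members (Pearson r of log2 CPM 0.76), followed by Il33 with Il11 (0.69), and Il1r1 ran opposite to Lif (-0.70). Il1rn had no r above 0 with any other tested member (-0.48 with Csf1, the lowest, to -0.013 with Il11). These points share the 4 genotypes, so the values describe the libraries and are not tests. Among 12301 genes of at least 1 CPM, those most like Il1rn by Pearson r were Car9 (0.98), Mgmt (0.96), Slc29a1 (0.95), Mab21l2 (0.95), Trps1 (0.94) and Cdsn (0.94). Car9, a carbonic anhydrase, averaged 50.4 CPM in Ing1-KO, 30.9 in DKO, 16.02 in WT and 12.9 in Gadd45a-KO. Ranked by Spearman's rho, 3 of these 6 remained among the first 6. The genes most like Il1r1 were Kitl, Draxin and Xdh (0.96, 0.96 and 0.95), those most like Csf1 were Dpep1, Ret and Prkar2b (0.94, 0.93 and 0.93), and those most like Il1rl1 were Clstn2, Nfatc4 and Preb (0.92, 0.91 and 0.91). Il33 ran closest to Cyp2j6 (0.93), Cdkl2 (0.92) and Zfp324 (0.92), Il6 to Lingo1 (0.94) and Pfkl (0.92), Il11 to Clip3 (0.90), Drosha (0.86) and Fam180a (0.85), and Lif to Cfl2 (0.95), Luzp1 (0.94) and Tnfrsf11b (0.92).

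Genes that act with these cytokines were read from 8 lists with 97 tested genes. Besides genes that carry the signal, the lists hold other ligands and receptors, processing genes and response genes such as Ccl2 and Ccl7. They are called signalling lists below. In DKO against Gadd45a-KO, 0 rose and 5 fell in edgeR, 5.15% beside 1.26% of all tested genes: Il1rap, Il27ra, Jak2, Ccl2 and Ccl7. At an unadjusted p under 0.05 there were 33, of which 13 were higher, beside 20% of all genes. DESeq2 called 16, of which 8 were higher, and 1246 genes in all. Il1rap, the accessory chain that IL-1R1 and ST2 share, was the 1 of 5 other tested IL-1 family receptors called. It had 46.6, 41.0 and 44.1 CPM in Gadd45a-KO and 35.1, 35.2 and 38.0 CPM in DKO, with no overlap. Its log2 fold change was -0.28 ± 0.06 (edgeR adjusted p = 0.0380). It had 45.6 to 46.6 CPM in WT and 34.1 to 37.8 CPM in Ing1-KO, so both groups labelled Ing1-deficient lay below both others.

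Another pair of the 5 belongs to gp130-type and JAK signalling, and both were lower in every library labelled Ing1-deficient than in any other. Il27ra, a chain of the IL-27 receptor, had 5.25, 4.28 and 4.10 CPM in Gadd45a-KO and 2.56, 2.52 and 3.18 CPM in DKO (log2 fold change -0.72 ± 0.12, edgeR adjusted p = 0.0239). Its range was 4.64 to 4.88 CPM in WT and 2.67 to 2.93 CPM in Ing1-KO. Jak2, a kinase of cytokine receptors, had 149, 153 and 147 CPM in Gadd45a-KO and 118, 115 and 136 CPM in DKO (log2 -0.28 ± 0.06, edgeR adjusted p = 0.0477), with 145 to 158 CPM in WT and 107 to 110 CPM in Ing1-KO.

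The chemokine genes Ccl2 and Ccl7, neighbours that IL-1 and NF-κB are known to induce and that attract monocytes, had the smallest adjusted p of the 5. Ccl2 had 106, 98.5 and 99.7 CPM in Gadd45a-KO and 60.9, 70.9 and 74.4 CPM in DKO (log2 -0.56 ± 0.07, edgeR adjusted p = 0.0104). Ccl7 had 100.2, 95.4 and 97.7 CPM in Gadd45a-KO and 67.8, 69.4 and 77.5 CPM in DKO (log2 -0.45 ± 0.06, edgeR adjusted p = 0.0116). Neither pair of groups overlapped. Of these 5 genes, Ccl2 kept its call with any 1 library left out (edgeR adjusted p at most 0.0468), Ccl7 lost it without DKO replicates 1 (0.0851) or 2 (0.0647), and Il27ra without Gadd45a-KO replicate 2 (0.05003) or DKO replicates 1 (0.130) or 2 (0.107). Il1rap kept its call in 4 of the 12 fits (without Gadd45a-KO replicate 2, Ing1-KO replicates 1 or 3, or DKO replicate 3), with an adjusted p of up to 0.179. Jak2 kept it in 3 (without Ing1-KO replicates 1 or 3, or DKO replicate 3), with an adjusted p of up to 0.204. With only the 6 libraries of the 2 groups, Il1rap (adjusted p = 0.0667), Il27ra (0.0549) and Jak2 (0.0850) did not pass in edgeR.

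**Figure D3:**
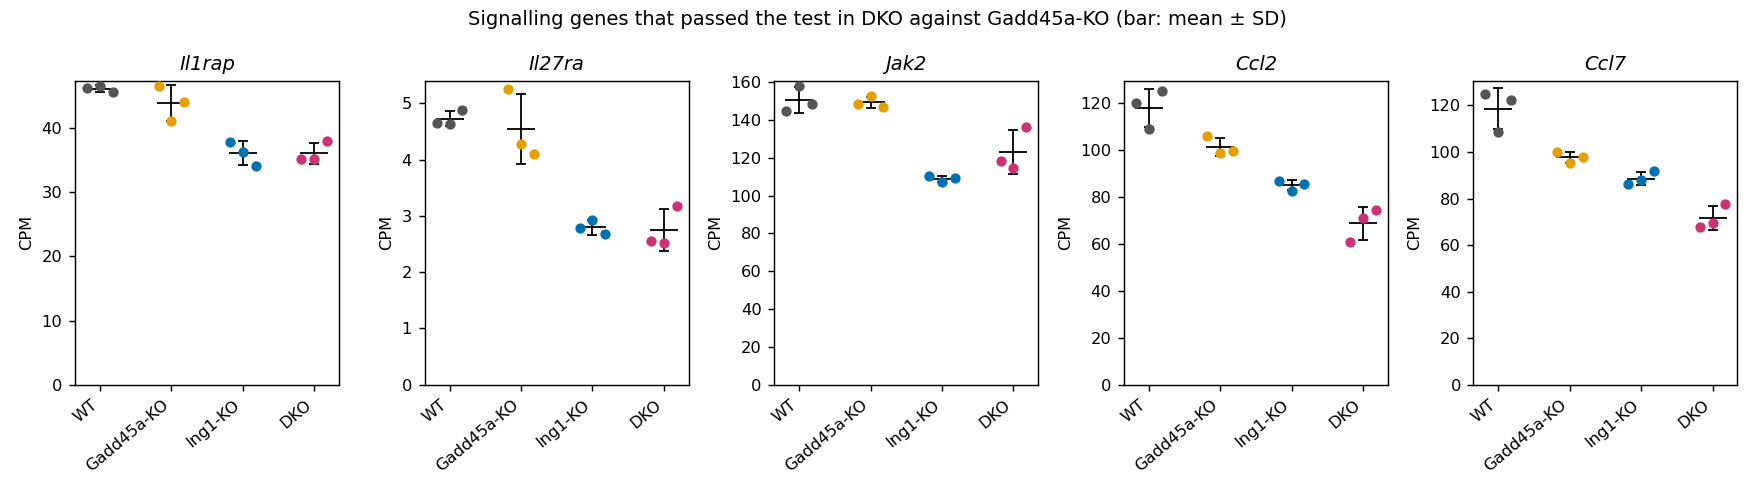
Level in CPM (y axis, from 0) by genotype (x axis) of the 5 genes of the signalling lists that passed in DKO against Gadd45a-KO. Each library is 1 point, with the mean as a line and the SD over 3 libraries as the bar. For all 5 genes the DKO points lie below all Gadd45a-KO and all WT points, for Ccl2 between 60.9 and 74.4 CPM against 98.5 to 106 CPM in Gadd45a-KO.

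Against WT, 4 of the 97 genes rose in DKO and 16 fell, 20.6% beside 13% of all tested genes, with a median log2 fold change of -0.07. The NF-κB feedback and IL-1 response list had 6 of 27 lower and 1 higher. Among those that fell were Ccl2 (log2 -0.78 ± 0.07, edgeR adjusted p = 0.000573), Ccl7 (-0.73 ± 0.06, 0.000388) and Ptges, a prostaglandin E synthase, at 52.6 to 63.0 CPM in WT and 27.0 to 38.1 CPM in DKO (-0.87 ± 0.14, 0.00680). Sod2, a mitochondrial superoxide dismutase, fell by 0.76 ± 0.16 (edgeR adjusted p = 0.0177). Of 13 tested IL-6 family genes 2 fell, Il27ra (log2 -0.78 ± 0.12) and the oncostatin M receptor Osmr (-0.26 ± 0.06, edgeR adjusted p = 0.0163). Of 12 JAK and STAT3 genes 3 fell, among them Bcl3 (-0.51 ± 0.11, edgeR adjusted p = 0.0172) and Stat3 itself (-0.14 ± 0.03, 0.0240). Of 9 genes for processing and secretion of IL-1, the inflammasome adaptor Pycard rose (0.73 ± 0.20, edgeR adjusted p = 0.0398) and Casp4 (-0.49 ± 0.12, 0.0261) and Capn1 (-0.15 ± 0.04, 0.0432) fell. Of 22 genes of IL-1 receptor signalling only Nfkb1 passed (-0.11 ± 0.03, edgeR adjusted p = 0.0437), and neither other tested IL-1 family ligand did (Il18, log2 fold change 0.53, adjusted p = 0.0877; Il1f9, 0.24, adjusted p = 0.540). With 1 library left out, Ccl2, Ccl7, Ptges, Il27ra and Il1rap kept their call against WT in 12 of 12 fits, Osmr, Bcl3, Stat3, Sod2 and Casp4 in 8, Capn1 in 5, Pycard in 4 and Nfkb1 in 2. Pycard also lost it with no filter on low counts (edgeR adjusted p = 0.0649).

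The colony-stimulating factor list moved in both directions. Il34, the other ligand of the CSF-1 receptor, had 7.80 to 10.7 CPM in WT and 4.22 to 4.81 CPM in DKO and fell by 1.03 ± 0.22 on the log2 scale (edgeR adjusted p = 0.0176). The receptor genes Csf1r (182 to 206 CPM in WT, 374 to 384 CPM in DKO, log2 0.95 ± 0.24, edgeR adjusted p = 0.0317) and Csf3r (log2 1.63 ± 0.37, 0.0211) rose. Both ligands of the CSF-1 receptor were thus lower in DKO than in WT, and the receptor was higher. The call for Csf1r was lost with no filter on low counts (edgeR adjusted p = 0.0787) and held in 6 of 12 fits with 1 library left out, that for Il34 and for Csf3r in 8.

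In DKO against Ing1-KO, 7 of the 97 genes rose and 11 fell, 18.6% beside 11.7% of all tested genes. Il34 (log2 -1.05 ± 0.22, edgeR adjusted p = 0.0239), the shared receptor chain Il6st, which encodes gp130 (-0.40 ± 0.10, 0.0320), and the IL-11 receptor Il11ra1 (-0.35 ± 0.07, 0.0181) fell. Those that rose included Csf3r (log2 1.28 ± 0.36, edgeR adjusted p = 0.0465), Csf2rb (0.98 ± 0.26, 0.0420), Csf1r (0.88 ± 0.24, 0.0450) and, in the IL-1 receptor signalling list, Peli1 (0.25 ± 0.06, 0.0268) and Tab2 (0.21 ± 0.05, 0.0268). In that same list Relb fell (log2 -0.23 ± 0.05, edgeR adjusted p = 0.0251), a call that held in 8 of 12 fits with 1 library left out. Csf2rb has a near-identical copy, Csf2rb2, so its reads are uncertain. Csf1r is also among the macrophage markers, whose sum was 8473 to 8999 CPM in DKO and 4520 to 5329 CPM in Ing1-KO, and the part of that sum in these calls was not tested. With 1 library left out, Csf1r, Csf2rb and Csf3r kept their call in 3 of 12 fits, Peli1 in 8 and Tab2 in 7, and the calls for Il34 and Il11ra1 held in 8 of 12 fits and that for Il6st in 7. Of the 5 genes called in DKO against Gadd45a-KO, Ccl7 (log2 -0.31 ± 0.06, edgeR adjusted p = 0.0202) and Ccl2 (-0.30 ± 0.07, 0.0276) also fell here. Their calls held in 9 and 8 of 12 fits with 1 library left out. Il1rap (log2 0.0023 ± 0.055, edgeR adjusted p = 0.982), Il27ra (-0.02 ± 0.13, 0.932) and Jak2 (0.18 ± 0.06, 0.0672) did not pass. Of the 27 NF-κB feedback and IL-1 response genes, 4 were called lower and 1 higher, Ptgs2 (log2 0.73 ± 0.20, edgeR adjusted p = 0.0478). In Gadd45a-KO against WT, 0 of the 97 passed in edgeR or in DESeq2 and 7 had an unadjusted p under 0.05, beside 5.48% of all genes. In Ing1-KO against WT, the comparison that chose the list, 0 were higher and 9 lower past the threshold (9.28% beside 4.32%).

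**Figure D4:**
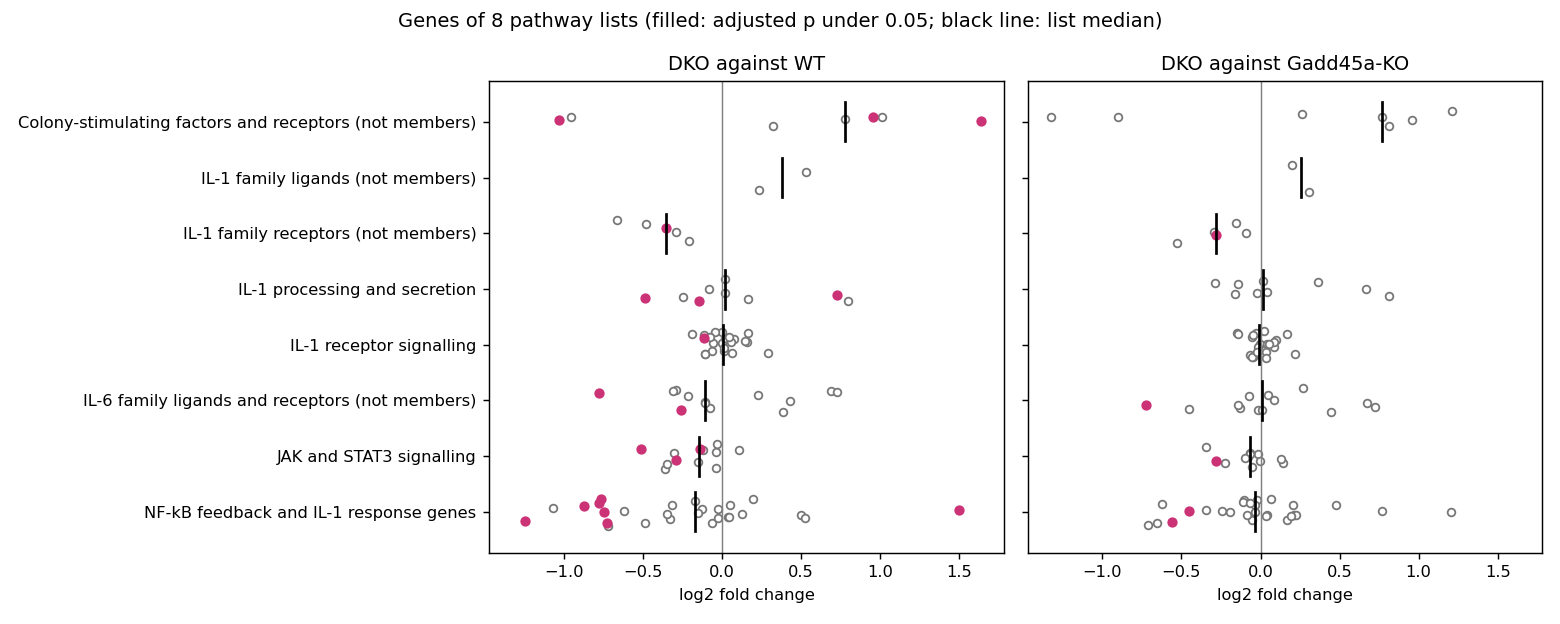
Log2 fold change (x axis) of each tested gene of the 8 signalling lists (rows) in DKO against WT and in DKO against Gadd45a-KO, with filled points for an edgeR adjusted p under 0.05 and a black line at each list's median. In DKO against Gadd45a-KO all 5 filled points lie left of 0, and in DKO against WT 16 genes are filled left of 0 and 4 right of it.

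Marker levels of macrophages, which express Il1rn, and of fat cells differed between genotypes in these cultures. In bulk RNA fewer cells of a type cannot be told apart from less RNA per cell. The summed level of 19 macrophage markers (19 of 19 tested) was 4510 to 5195 CPM in WT, 2400 to 7062 in Gadd45a-KO, 4520 to 5329 in Ing1-KO and 8473 to 8999 in DKO. In DKO against WT 8 of 19 rose and 0 fell, beside 5.94% and 7.09% of all tested genes. In DKO against Ing1-KO 3 rose, beside 11.7% of all genes called in either direction. In DKO against Gadd45a-KO 0 passed in edgeR, beside 1.26% of all genes, with a median log2 fold change of 0.75. There 14 were at an unadjusted p under 0.05, beside 20% of all genes, and DESeq2 called 8 markers and 1246 genes in all. In Gadd45a-KO and in Ing1-KO against WT 0 of the 19 passed in edgeR. Csf1r is among these markers, and with 1 library left out its call held in 6 of 12 fits against WT and in 3 against Ing1-KO. The part of the macrophage level in the DKO values of Il1rn, Csf1r, Csf3r and Pycard was not tested. In Ing1-KO the macrophage sum overlapped that of WT, and Il1rn, whose levels there chose the list, was at 103 to 129 CPM against 29.8 to 49.9 CPM in WT. Within Gadd45a-KO, replicate 1 had both the lowest macrophage sum (2400 CPM) and the lowest Il1rn level (29.7 CPM), whereas replicate 2 had the highest sum (7062 CPM) and replicate 3 the highest Il1rn level (38.6 CPM). Within DKO, replicate 3 had the lowest macrophage sum (8473 CPM) and the highest Il1rn level (77.2 CPM). Without Gadd45a-KO replicate 1, Il1rn in DKO against Gadd45a-KO had a log2 fold change of 0.78 (edgeR adjusted p = 0.120).

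The summed level of 13 adipocyte markers (13 of 13 tested) was 1848 to 3665 CPM in WT, 1261 to 1664 in Gadd45a-KO, 404 to 3302 in Ing1-KO and 419 to 491 in DKO. In DKO against WT 10 of 13 fell, beside 7.09% of all tested genes. In DKO against Ing1-KO 7 fell, beside 11.7% of all genes called in either direction. In DKO against Gadd45a-KO 0 passed in edgeR, beside 1.26% of all genes, with a median log2 fold change of -2.48. There 10 were at an unadjusted p under 0.05, beside 20% of all genes, and DESeq2 called 9 markers and 1246 genes in all. DKO was thus the genotype in which the adipocyte markers and Csf1, Il1r1 and Il1rl1 were lowest together, and the part of the adipocyte level in those 3 results was not tested. Within Ing1-KO the adipocyte sum was 3302, 1129 and 404 CPM in replicates 1 to 3, and Il1r1 (261, 206 and 192 CPM) and Csf1 (364, 305 and 267 CPM) took the same order. Il1rl1 took the opposite order (49.4, 54.9 and 87.0 CPM), and Il1rn took neither (129, 103 and 113 CPM). The adipocyte sum in replicates 1 to 3 was 3665, 1848 and 3350 CPM in WT and 1587, 1664 and 1261 CPM in Gadd45a-KO. In DKO it was 426, 419 and 491 CPM. Across these other genotypes, Csf1 and Il1rn took the order of the sum in none, Il1r1 in DKO alone and Il1rl1 in WT alone. Of the other cell types that express these cytokines, the defining neutrophil markers S100a9 and Ly6g, the mast cell markers Tpsb2 and Fcer1a and the T cell marker Cd3e had 0 reads in all 12 libraries. The summed level per library of the lists was 0.377 to 1.30 CPM for 8 neutrophil, 0.325 to 0.797 CPM for 8 mast cell and 0.597 to 1.24 CPM for 6 T cell markers. The 9 epithelial and keratinocyte markers summed to 4.67 to 8.87 CPM, with Krt5 and Krt1 at no more than 3 reads, and the 7 endothelial markers to 131 to 304 CPM. Nearly all of the endothelial sum was Flt1 (125 to 180 CPM in Ing1-KO, 235 to 270 in WT, 228 to 257 in Gadd45a-KO and 214 to 299 in DKO), while Pecam1 averaged 0.323 to 0.932 CPM by genotype and Tie1 had no more than 3 reads in any library.

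**Figure D5:**
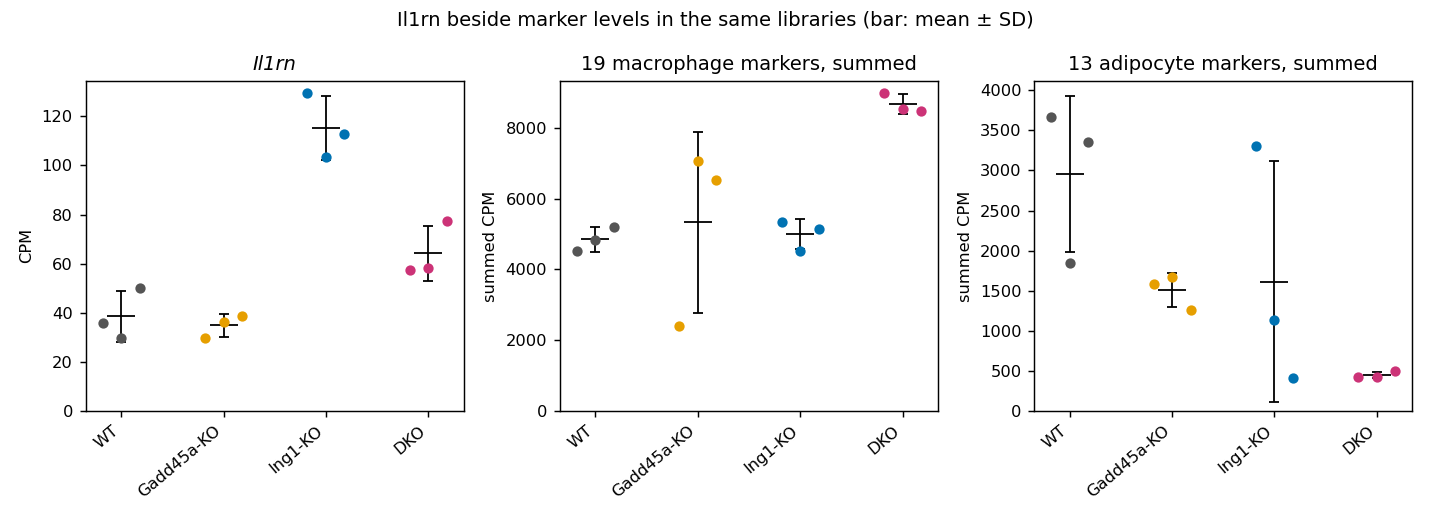
Il1rn in CPM and the summed CPM of 19 macrophage and 13 adipocyte markers (y axes, from 0) in the same libraries by genotype (x axis), with 1 point for each library, the mean as a line and the SD over 3 libraries as the bar. Il1rn is highest in Ing1-KO (103 to 129 CPM), the macrophage sum is highest in DKO (8473 to 8999 CPM), and the adipocyte sum is lowest in DKO apart from 1 Ing1-KO library at 404 CPM.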

How the data were processed

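Poly(A) RNA of 12 libraries was sequenced from 1 end for 51 cycles, per the labels' protocols. The authors deposited unnormalized read counts for each Ensembl gene, and the submitters' processing notes name TopHat2 2.0.9, Bowtie2 2.1.0, HTSeq 0.5.4 and the build mm9. How strand and multi-gene reads were handled is not given in the sources used here. Lines that name no gene held 24.2% to 24.8% of each library's reads and were left out.

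Computed here were CPM (TMM-scaled, factors 0.986 to 1.01), log2 fold changes and tests, with edgeR 4.0.16 in R 4.3.3: filterByExpr, 1 quasi-likelihood fit of all 12 libraries, and Benjamini-Hochberg adjustment over 16163 genes. A gene was called at an adjusted p under 0.05. The SE was derived from each log2 fold change and the root of its F statistic, and other errors are SD over 3 libraries. The common biological coefficient of variation was 0.105. Exon lengths came from a GENCODE annotation of a later build, promoter sequences from RefSeq. The script was run on simulated data. The first simulation gave more false calls than the nominal rate, and the way of simulating was then changed while the script was not. No error rate is therefore drawn from the simulations. Alternatives were DESeq2 1.42.0, RLE or upper-quartile scaling, testing every gene or those averaging 5 CPM or more, the legacy edgeR fit, a replicate block, only the groups compared, and each library left out.

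Groups follow the labelled genotypes. Replicates of a genotype all differed by more than sampling noise (chi-square per degree of freedom 5.64 to 74.0). The members and gene lists were chosen with earlier results of these data known. Named genes were the 10 members, both targets, up to 4 called genes per signalling list with the smallest adjusted p in comparisons other than Ing1-KO against WT, and the 6 genes most like Il1rn and 3 most like each other tested member, of which 1 is not reported here.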

Additional observations from a re-analysis of the deposited data

How the results depend on the processing

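Most values for the members and the named signalling genes kept their direction and their side of the threshold: 1393 did, 233 kept the direction but no longer passed, 8 newly passed and 21 changed sign. RLE, upper-quartile and legacy fits changed no count of members called. With no filter on low counts 0 members were called in DKO against WT and 0 in DKO against Ing1-KO, where more genes are tested. In DKO against Gadd45a-KO 1 member (Il1rn) was called with a mean of at least 5 CPM, with DESeq2 and with only the 6 libraries compared. With 1 library left out, the count ran from 0 to 4 in DKO against WT, 0 to 1 in DKO against Gadd45a-KO, 0 to 3 in DKO against Ing1-KO and 1 to 2 in Ing1-KO against WT. In some of these fits Il1b passed the filter and was among those called. The changes of sign all came from leaving out 1 library, for log2 fold changes that did not pass. In the interaction the ranges were -0.080 to 0.36 for Il1rl1, -0.18 to 0.23 for Il6, -0.18 to 0.065 for Il1r1 and -0.031 to 0.19 for Csf1. Il33 ran from -0.13 to 0.27 in Ing1-KO against WT and from -0.0026 to 0.45 in Gadd45a-KO against WT, and Il1rn from -0.30 to 0.090 in the latter. Il6 ran from -0.35 to 0.024 in DKO against Gadd45a-KO and from -0.36 to 0.017 in Ing1-KO against WT, Csf1 from -0.19 to 0.034 in DKO against Ing1-KO and Lif from -0.0040 to 0.26 in DKO against Gadd45a-KO. Apart from the changes described with the results, the cause was not tested.

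With the replicate number as a block, 3 members were called in DKO against WT in place of 4 (Il1r1 was lost, edgeR adjusted p = 0.0582), and the other counts of members were the same: 0 in Gadd45a-KO against WT, 1 in Ing1-KO against WT, 0 in DKO against Gadd45a-KO, 1 in DKO against Ing1-KO and 0 in the interaction. Among all tested genes the block called 95 in DKO against Gadd45a-KO in place of 203, and DESeq2 without a block called 1246. Of 18 correlations between the deviations of same-numbered libraries, 2 were over 0.1 (range -0.19 to 0.25). Differently numbered libraries were not set beside them, so whether the numbers pair the samples cannot be told. Il1a and Il1b had between 3 and 24 reads per library, which limits what could be detected for them.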
